A study of Mus musculus with 24 samples.

Results

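Livers of mice fed a steatohepatitis-inducing diet for 6 weeks were compared with livers of mice fed chow for the same time, across the mature microRNAs (miRNAs) that the liver expressed. A miRNA was included if the scanner software flagged it as detected on at least 2 of the 4 week 6 liver arrays, which held for 344 of the 1881 mouse miRNAs on the array. Of these 344, 242 were detected on all 4 arrays.

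The study profiled miRNAs in liver and serum after 1, 2 and 6 weeks of diet on 1-colour Agilent miRNA arrays, 24 in all. The NASH group (non-alcoholic steatohepatitis) received a choline-deficient high-fat diet containing 0.1% methionine, and the control group received the chow CE-2. Both groups were male C57BL/6NJcl mice with no genetic change, purchased when 5 weeks old, given 1 week to acclimatize and 12 weeks old at week 6, with 2 liver arrays per diet. Nothing in the labels tells if a diet's 2 arrays hold separate mice, pools or repeats of 1 extract. The p-values therefore cover array-to-array spread, some of which may be technical. The diets differ in more than choline, and the comparison cannot separate their components.

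A miRNA guides the silencing complex to messenger RNAs that pair with its seed, the bases near its 5′ end, and lowers their stability and translation. Choline deficiency blocks the export of fat from hepatocytes, so that this diet leads to fat storage, then to inflammation and scarring. Whole liver RNA comes mostly from hepatocytes, whose leading miRNA is miR-122, and the rest from Kupffer and other immune cells, stellate cells, endothelium, bile duct cells and blood. A difference in whole liver RNA can come from the number of cells of a type or from the RNA in each cell, and these cannot be told apart here.

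The mature sequences below carry the main differences, written 5′ to 3′ with the seed (bases 2 to 8) in capitals. They are from RefSeq on GRCm38.p6, which gave a sequence for 300 of the 344 miRNAs. Coordinates are on that build. The first set holds miRNAs of immune and stellate cells and of the stress response that were higher on NASH arrays, together with 2 from the imprinted Dlk1-Dio3 region of chromosome 12.
miR-34a-5p: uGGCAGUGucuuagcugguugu
miR-342-3p: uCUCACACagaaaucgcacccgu
miR-223-3p: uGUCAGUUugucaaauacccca
miR-155-5p: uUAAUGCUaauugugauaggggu
miR-214-3p: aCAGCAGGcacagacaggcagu
miR-199a-5p: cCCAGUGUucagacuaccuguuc
miR-379-5p: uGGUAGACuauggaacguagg
miR-127-3p: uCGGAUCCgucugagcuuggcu

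miR-34a-5p lies at chr4:150068473-150068494 on the plus strand, outside any protein-coding gene of the annotation. miR-342-3p lies at chr12:108658680-108658702 on the plus strand, within the span of Evl. miR-214-3p (chr1:162223438-162223459) and 1 of the 2 copies of miR-199a-5p (chr1:162217844-162217866) both lie on the plus strand within the span of Dnm3. miR-223-3p lies at chrX:96242884-96242905, and miR-127-3p at chr12:109592888-109592909 within the span of Rtl1, both on the plus strand. The spans were matched without regard to the gene's strand.

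The next set holds miRNAs that were lower on NASH arrays, 2 hepatocyte miRNAs made from shared transcripts, miR-101a-3p, and 3 members of the miR-30 family that have the same seed, GUAAACA.
miR-192-5p: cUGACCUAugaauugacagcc
miR-194-5p: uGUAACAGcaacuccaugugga
miR-101a-3p: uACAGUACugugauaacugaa
miR-30a-5p: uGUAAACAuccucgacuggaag
miR-30c-5p: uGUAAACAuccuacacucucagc
miR-30e-5p: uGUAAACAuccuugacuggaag

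miR-192-5p lies at chr19:6264857-6264877 on the plus strand. miR-194-5p has 2 loci, of which 1 is beside miR-192 on chromosome 19 and the other is at chr1:185313325-185313346, within the span of Iars2. miR-30e-5p lies at chr4:120772660-120772681 on the minus strand, within the span of Nfyc.

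The last set holds 3 pairs that have the same seed and whose members were called in opposite directions.
miR-27a-3p: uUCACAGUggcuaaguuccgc
miR-27b-3p: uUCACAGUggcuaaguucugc
miR-132-3p: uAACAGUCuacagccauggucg
miR-212-3p: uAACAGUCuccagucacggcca
miR-193b-3p: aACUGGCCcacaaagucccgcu
miR-193a-3p: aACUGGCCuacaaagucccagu

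Counted from 1 at the 5′ end, miR-27a-3p and miR-27b-3p differ by C19U alone. miR-132-3p and miR-212-3p differ by A10C, C14U, U17C, U20C and G22A, all outside the seed.

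Levels are given as relative signal, the background-subtracted intensity of a miRNA's brightest probe as a multiple of the 75th percentile of its array. Signals at or under a floor of 0.0224 were set to that floor and have no order. Differences are log2 values, control subtracted from NASH, each with its standard error (SE) from a limma fit over all 12 liver arrays. Adjusted p-values cover the 388 miRNAs tested in liver, and an adjusted p below 0.05 is a call. With 2 against 2 arrays an exact permutation test could not go below a two-sided p of 0.333, so the calls rest on a spread estimated with the other weeks.

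The 2 NASH arrays detected 342 and 379 miRNAs, and the 2 control arrays 253 and 306. The 75th percentile itself was 626 and 798 intensity units on NASH arrays, against 394 and 655 on control arrays. The 4 control probes named dmr differed between the diets by -0.09 to 0.10 log2 units, and the 2 named hur by 0.45 and 0.67. NASH arrays lay in column 4 and control arrays in column 3 of a single slide, and an effect of the column cannot be told apart from that of diet. Replicates correlated across the 242 miRNAs at r = 0.979 for NASH and 0.985 for control arrays, which describes these arrays, since miRNAs are not independent replicates. miR-122-5p was far above background on all 4 arrays, while none of the 7 muscle and 4 pancreas miRNAs on the array was detected often enough to be included.

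Of the 388 miRNAs tested in liver, 109 were called (28.1%), 49 higher (12.6%) and 60 lower (15.5%) with NASH. All 109 are among the 344, since the 44 tested miRNAs outside that rule were not called. Among the 242 detected on all 4 arrays, 28 rose (11.6%), 56 fell (23.1%) and 158 were not called, and their median difference was -0.13. Counts within lists, hairpins and clusters below are to be read beside these shares. Of the 45 miRNAs detected on both NASH arrays and 1 control array 15 were called higher, and of the 44 detected on the NASH arrays alone 6 were. However, a miRNA enters these groups only by being brighter with NASH, so these calls support nothing by themselves. Both NASH arrays lay above both control arrays for 93 of the 388 (24%) and below them for 95 (24.5%).

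How arrays are scaled to each other sets the balance of rises and falls. The median difference of miRNAs detected on every liver array was -0.16 as scaled here, 0.26 with no scaling and 0.01 with all probes in the percentile, and single differences are best read against that median. With no scaling limma called 41 higher and 0 lower, with 12 lower at an unadjusted p below 0.05. With the percentile taken over all probes it called 28 higher and 4 lower, and after normexp background correction 16 higher and 55 lower. A fit on the 4 week 6 arrays alone called 9 higher and 10 lower, and leaving out control replicate 2 left 38 higher and 38 lower. Of the 84 called miRNAs detected on all 4 arrays, 75 (28 higher and 47 lower) kept their sign under 4 other scalings.

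miR-34a-5p had the largest rise of the miRNAs above background in both diets. This miRNA is a direct transcriptional target of p53 and lowers the deacetylase Sirt1. Its relative signal was 2.47 and 2.30 on NASH arrays, against 0.195 and 0.202 on control arrays. The groups were far apart and the 2 arrays of each diet lay close together. The log2 difference was 3.58 (SE 0.20, adjusted p = 6.32e-05), a 12.0-fold rise, and it was called under each of the 22 alternative settings, at 2.93 to 4.06. miR-34b-5p, which has the same seed, was at the floor on all 4 arrays.

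miR-342-3p, abundant in lymphocytes and made from an intron of Evl, was the other named miRNA called under every alternative that was run. Its relative signal was 1.20 and 1.12 on NASH arrays, against 0.134 and 0.166 on control arrays. It rose 7.77-fold (log2 2.96, SE 0.17, adjusted p = 6.32e-05). Its partner arm miR-342-5p was well above background on NASH arrays only, at 0.0371 and 0.0365, and was at least 1.44-fold higher there (adjusted p = 2.29e-06), but after normexp its log2 difference turned to -0.10.

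**Figure D1:**
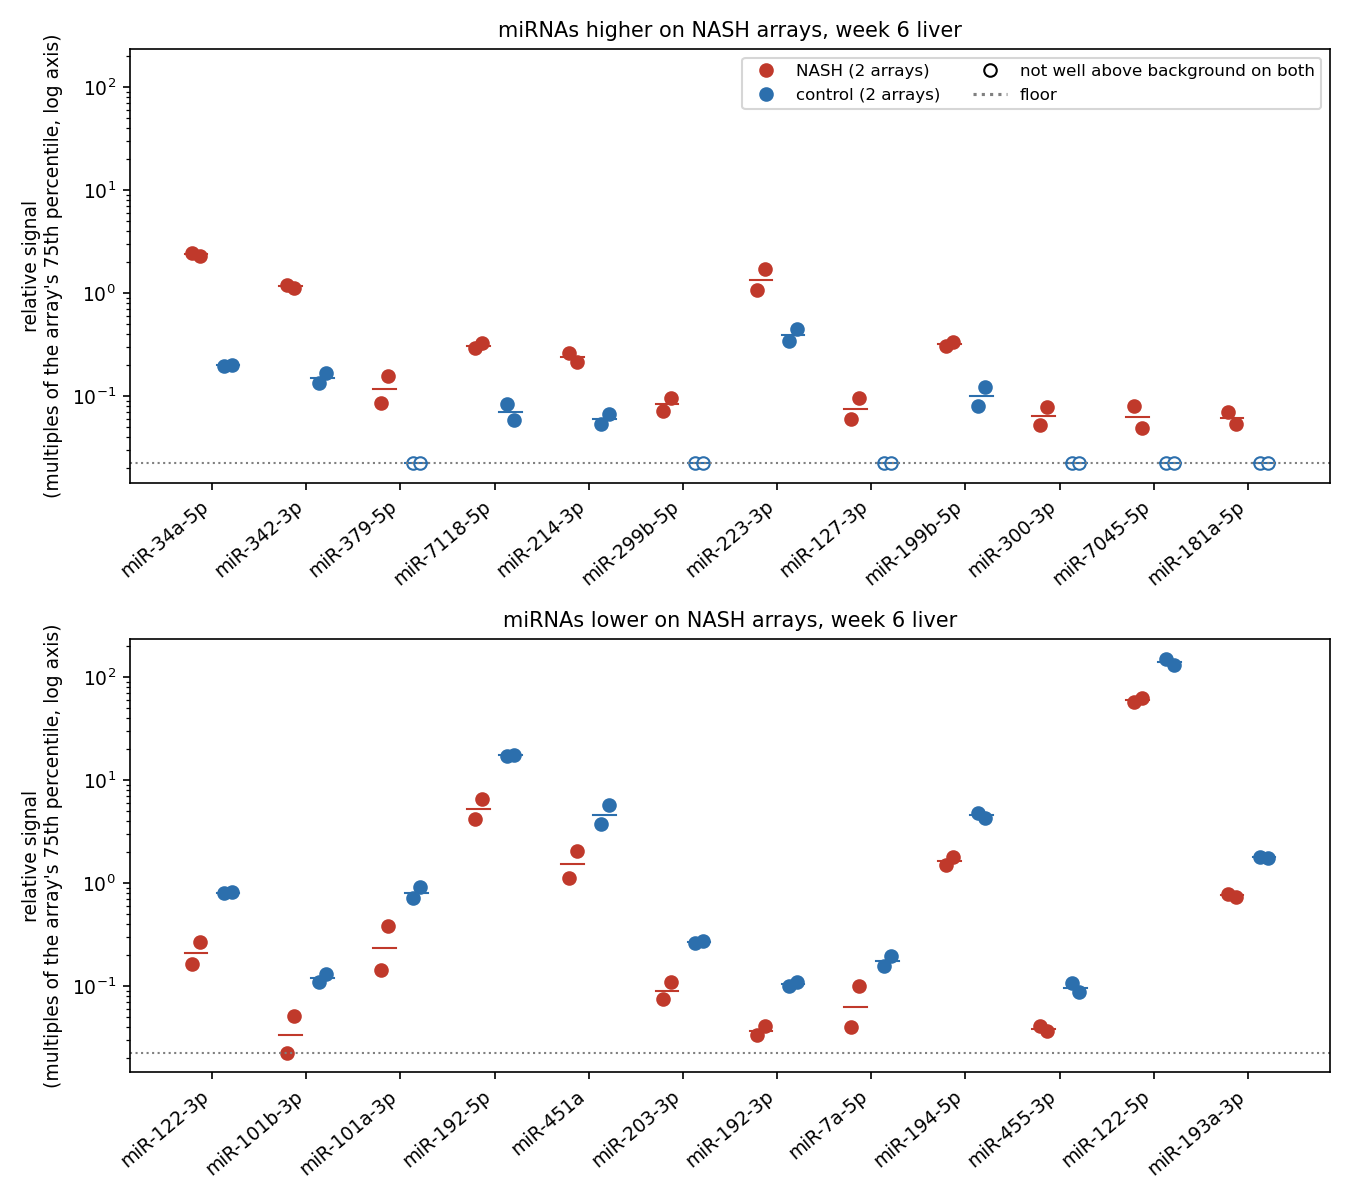
Relative signal (log axis) of the 12 miRNAs with the largest rise (top) and the 12 with the largest fall (bottom) among those called and well above background in the brighter group, NASH arrays left of control arrays, with bars at the mean of the 2 arrays on the log scale. The 24 were chosen for their called difference, and for each the 2 NASH arrays lie apart from the 2 control arrays. Over the 388 tested, both NASH arrays lay above both control arrays for 24% and below them for 24.5%. miR-101b-3p, miR-101a-3p and miR-7a-5p have NASH arrays that lie far from each other.

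Immune cell miRNAs did not move as 1 group. Of 18 on the array 12 were included, of which 6 rose, 2 fell and 4 were not called. Only 7 were detected on all 4 arrays, and of these 2 rose, 2 fell and 3 were not called, with a median of 0.53, against -0.13 over the 242. The other 4 rises were of miRNAs that the NASH arrays detected and at least 1 control array did not, so they are a description. The summed relative signal of all 12 included immune miRNAs was 3.69 and 5.10 on NASH arrays, against 1.93 and 2.35 on control arrays.

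miR-223-3p, which marks neutrophils and other myeloid cells, was at 1.06 and 1.71 on NASH arrays, against 0.345 and 0.445 on control arrays. The NASH arrays differed from each other more than the control arrays did, and all values of NASH lay above those of control. The rise was 3.44-fold (log2 1.78, SE 0.32, adjusted p = 0.00699). miR-155-5p, induced in activated macrophages and lymphocytes, was at 0.0587 and 0.0597 on NASH arrays and at the floor on both control arrays. It was at least 2.32-fold higher with NASH (adjusted p = 0.00125 for the difference from the floor, where control arrays had no spread). Over the alternative settings its log2 difference was 0.075 to 2.49, with an adjusted p as high as 0.66.

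miR-146a-5p, which dampens NF-kB signalling, was at 0.313 and 0.415 on NASH arrays, against 0.238 and 0.262 on control arrays, and was not called (log2 0.53, adjusted p = 0.112). miR-142a-3p, found in all blood cell lineages, was at 0.587 and 1.22 on NASH arrays, against 0.537 and 0.735 on control arrays. Its groups overlapped and it was not called (log2 0.43, adjusted p = 0.567). The immune miRNAs that fell were miR-212-3p and miR-511-3p, an intronic miRNA of the macrophage mannose receptor gene in mouse (log2 -0.86, adjusted p = 0.027, named here after its values were seen).

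Among miRNAs of stellate cells and fibrosis, some rose and the rest were not called. Of 15 on the array 10 were included, of which 5 rose and 5 were not called. Among the 7 detected on all 4 arrays 4 rose and 3 were not called, with a median of 0.97. The summed relative signal of the list lay the other way, at 11.4 and 25.5 on NASH arrays, against 28.2 and 32.9 on control arrays. Most of that sum is miR-21a-5p, described below.

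miR-214-3p, which is made with miR-199a from a transcript antisense to Dnm3 and is raised in activated stellate cells and fibroblasts, was at 0.263 and 0.216 on NASH arrays, against 0.0534 and 0.0666 on control arrays. It rose by 2.00 log2 units (SE 0.14, adjusted p = 1.49e-04). Its neighbour miR-199a-5p was at 0.282 and 0.290 on NASH arrays, against 0.113 and 0.144 on control arrays, a 2.24-fold rise (log2 1.17, SE 0.20, adjusted p = 0.00564). The other arm of that hairpin, miR-199a-3p, was at 0.604 and 1.01 on NASH arrays, against 0.457 and 0.531 on control arrays, and was not called (log2 0.66, SE 0.32, adjusted p = 0.197).

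miR-199b-5p, made from a related hairpin, was at 0.308 and 0.337 on NASH arrays, against 0.0802 and 0.123 on control arrays. The rise was 3.24-fold (log2 1.69, SE 0.36, adjusted p = 0.0133). Without NASH replicate 2 or control replicate 1 it was no longer called (log2 1.63, adjusted p = 0.0527, and log2 1.41, adjusted p = 0.0565). miR-221-3p, a miRNA of proliferating cells, rose 1.96-fold (log2 0.97, SE 0.11, adjusted p = 0.0012), and its cluster partner with the same seed, miR-222-3p, was at least 1.31-fold higher with NASH (adjusted p = 0.00539). After normexp the difference of miR-222-3p turned to -0.13.

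miR-21a-5p, a miRNA of fibrotic and growing tissue, was at 9.47 and 23.1 on NASH arrays, against 27.2 and 31.7 on control arrays. The 2 NASH arrays differed more than 2-fold from each other, and the difference was not called (log2 -0.99, SE 0.47, adjusted p = 0.197). In the miR-29 family, whose members with the seed AGCACCA repress collagen genes, 1 of 5 members fell and 4 were not called. The 3 with that seed, miR-29a-3p, miR-29b-3p and miR-29c-3p, were all not called. The member that fell is an opposite arm with another seed, GACCGAU. miR-29a-3p was at 7.90 and 7.41 on NASH arrays, against 6.43 and 10.1 on control arrays, with overlapping groups. The fall was that of miR-29c-5p (log2 -0.38, adjusted p = 0.0183), which turned to 0.092 with no scaling and lost its call without NASH replicate 2, control replicate 1 or control replicate 2 (adjusted p = 0.0794, 0.115 and 0.0611).

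**Figure D2:**
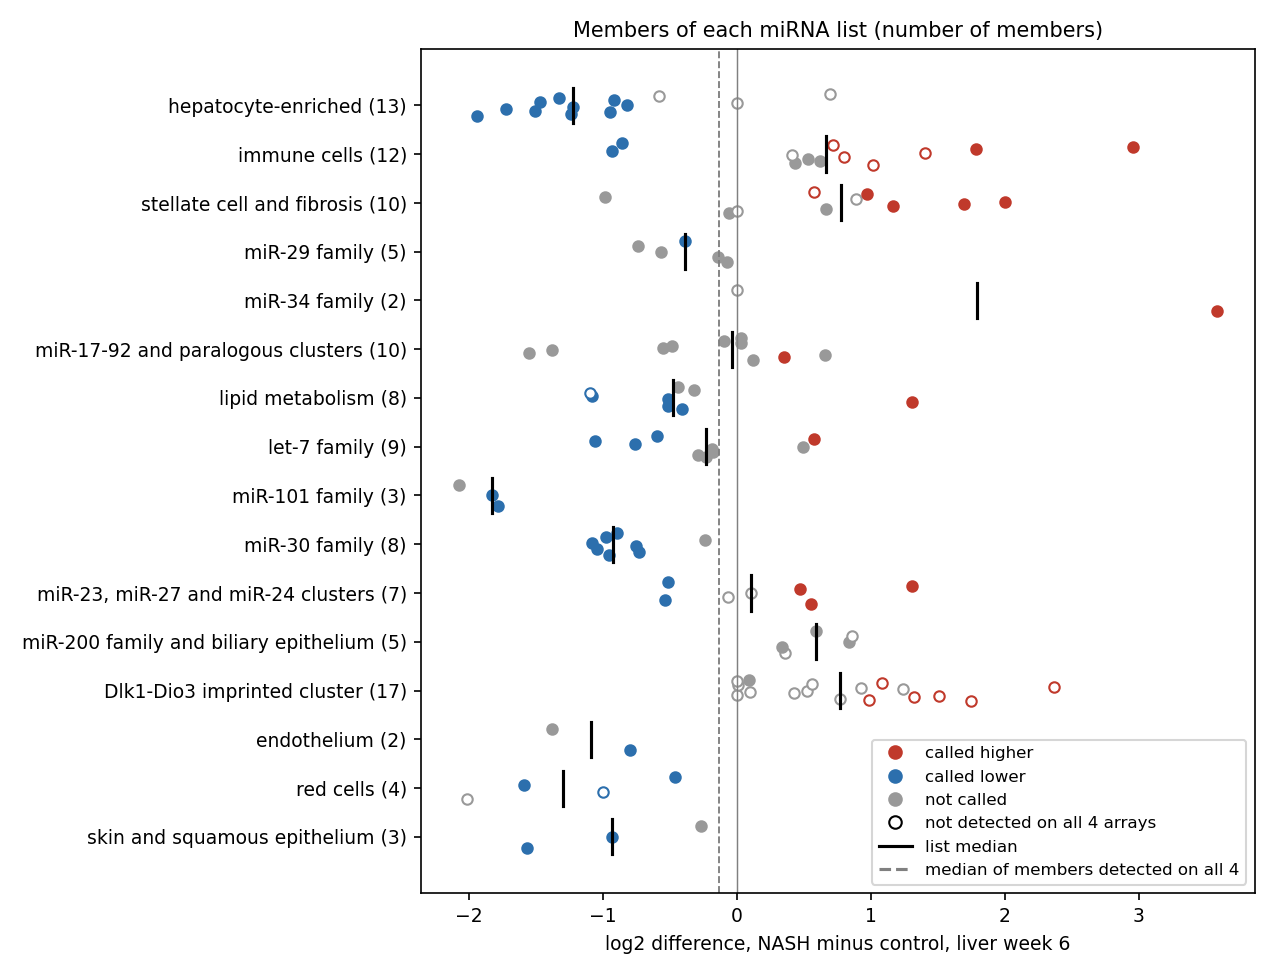
Log2 difference (NASH minus control, week 6 liver) of each included member of the miRNA lists, 1 row per list with the number of members. Colours show calls and open points mark miRNAs not detected on all 4 arrays; black bars are list medians and the dashed line is the median of -0.13 over the 242 miRNAs detected on all 4. Hepatocyte, miR-30 and miR-101 points lie mostly left of the dashed line, immune and stellate points mostly right of it.

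miRNAs of the imprinted Dlk1-Dio3 region, a long maternally expressed cluster that is active in the embryo, were near or under the limit of detection in control livers. Of 40 on the array 17 were included, and only 1 of them was detected on all 4 arrays. Of the 17, 6 rose and 11 were not called. Most entered only because NASH arrays detected them, so their count is a description.

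miR-379-5p was at 0.0858 and 0.156 on NASH arrays and at the floor on both control arrays, at least 4.54-fold higher with NASH (adjusted p = 0.00213). miR-127-3p was at 0.0596 and 0.0949 on NASH arrays and at the floor on control arrays, at least 2.95-fold higher (adjusted p = 0.00177). miR-300-3p was at least 2.50-fold and miR-154-5p at least 2.19-fold higher (adjusted p = 0.00213 for both). The lowest log2 difference over the alternative settings was 0.55 for miR-379-5p, 0.23 for miR-127-3p, 0.14 for miR-300-3p and 0.044 for miR-154-5p. In each of these 4, NASH replicate 2 was the brighter array. The member detected everywhere, miR-494-3p, was at 1.00 and 0.852 on NASH arrays, against 0.704 and 1.06 on control arrays, and was not called (log2 0.09, adjusted p = 0.947).

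miR-299b-5p, whose locus lies in the same region on the opposite strand at chr12:109710673-109710693, was at 0.0715 and 0.0966 on NASH arrays and at the floor on control arrays, at least 3.26-fold higher (adjusted p = 8.31e-04). Its lowest log2 difference over the alternative settings was 0.26. In all, 46 of the 344 miRNAs were well above background on both NASH arrays and on neither control array. For 32 of the 46 the "at least" difference was above 0, and the others are not shown to be higher by that measure. NASH arrays also detected more miRNAs in general. For 3 miRNAs it was the other way round, above background on both control arrays and on neither NASH array. Those 3 were miR-137-3p, miR-144-5p and miR-6412, at the floor on both NASH arrays, where against that floor they fell by 1.07, 1.00 and 0.79 on the log2 scale (adjusted p = 0.00719, 0.0124 and 0.00108). miR-144-5p lost its call without NASH replicate 1 or control replicate 2 (adjusted p = 0.0524 and 0.0724).

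Of the 109 called miRNAs 50 belong to no list, and 2 of those that were brighter with NASH follow. miR-7118-5p, which lies within the span of Plxnb2 on chromosome 15, was at 0.293 and 0.326 on NASH arrays, against 0.0834 and 0.0587 on control arrays. It rose 4.42-fold (log2 2.14, SE 0.37, adjusted p = 0.00611). miR-181a-5p, which tunes antigen receptor signalling in lymphocytes, was at 0.0698 and 0.0535 on NASH arrays and at the floor on control arrays, of which 1 was well above background. Its NASH mean lay 1.45 log2 units above that floor, which is a distance to the floor and not a measured difference. The lowest such value over the alternative settings was 0.042.

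Hepatocyte-enriched miRNAs were lower with NASH. Of 16 on the array 13 were included, and 10 fell and 3 were not called. The 10 that fell were those detected on all 4 arrays, and their median was -1.28, against -0.13 over the 242. The summed relative signal of the list was 66.8 and 75.2 on NASH arrays, against 180 and 164 on control arrays. With no scaling 0 of the 38 falls named here were called, those of this list among them.

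miR-122-5p, which supports cholesterol synthesis and hepatocyte identity, was at 57.5 and 62.2 on NASH arrays, against 151 and 133 on control arrays. It fell to 0.423 of control (log2 -1.24, SE 0.10, adjusted p = 2.97e-04). Quantile normalization gave it the same value on every array, so that its difference was 0.00 there. Its share of the summed signal of the 344 miRNAs was 14.4% and 15.4% on NASH arrays, against 21% and 19.9% on control arrays. The other arm, miR-122-3p, was at 0.162 and 0.270 on NASH arrays, against 0.797 and 0.814 on control arrays, and fell further (log2 -1.94, SE 0.26, adjusted p = 0.00213).

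miR-192-5p, made with miR-194 under the control of hepatocyte and gut transcription factors, was at 4.19 and 6.61 on NASH arrays, against 17.1 and 17.6 on control arrays. It fell to 0.303 of control (log2 -1.72, SE 0.23, adjusted p = 0.00213). miR-194-5p was at 1.49 and 1.81 on NASH arrays, against 4.80 and 4.32 on control arrays, and fell to 0.361 of control (log2 -1.47, SE 0.11, adjusted p = 2.42e-04). miR-192-3p, the other arm of the first hairpin, fell alongside them (log2 -1.51, adjusted p = 4.58e-04).

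miR-193a-3p had replicates that differed little, at 0.788 and 0.735 on NASH arrays, against 1.80 and 1.75 on control arrays. It fell to 0.429 of control (log2 -1.22, SE 0.06, adjusted p = 4.71e-05). miR-455-3p fell to 0.399 of control (log2 -1.33, SE 0.14, adjusted p = 9.12e-04). miR-148a-3p, which restrains the LDL receptor, was at 2.02 and 2.93 on NASH arrays, against 4.15 and 5.29 on control arrays (log2 -0.95, SE 0.20, adjusted p = 0.0141). It was not called without control replicate 2 (log2 -0.77, adjusted p = 0.0771).

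miR-802-5p, which is raised in obese mouse liver, was the list member that lay on the other side. It was at 0.0370 and 0.0613 on NASH arrays, against the floor and 0.0387 on control arrays, with overlapping groups, and was not called (log2 0.70, SE 0.52, adjusted p = 0.41).

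In the lipid metabolism list 8 of 9 miRNAs on the array were included, of which 1 rose, 5 fell and 2 were not called. Over the 388 tested, 12.6% were called higher and 15.5% lower. miR-33-5p, which lies within the sterol regulator gene Srebf2 and represses the cholesterol exporter Abca1, was at the floor and 0.0255 on NASH arrays, against 0.0533 and 0.0492 on control arrays. It fell (log2 -1.10, SE 0.15, adjusted p = 0.00213), and a value at the floor understates the size of this fall. The list's rise was that of miR-27a-3p. miR-103-3p and miR-107-3p, which lower insulin sensitivity in mouse liver, fell by 0.41 and 0.51 on the log2 scale (adjusted p = 0.0132 and 0.0255, named after their values were seen).

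The miR-30 family, broadly expressed in epithelial cells including hepatocytes, fell in most of its listed members. Of 8 included members of the list 7 fell and 1 was not called, with a median of -0.93, against 23.1% called lower over the 242. miR-30c-1-3p, outside the list, was at the floor on all 4 arrays. miR-30c-5p was at 1.39 and 1.34 on NASH arrays, against 3.18 and 2.62 on control arrays (log2 -1.08, SE 0.11, adjusted p = 7.12e-04). miR-30a-5p was at 2.90 and 2.99 on NASH arrays, against 4.44 and 5.40 on control arrays (log2 -0.73, SE 0.13, adjusted p = 0.00633). The opposite arms miR-30a-3p and miR-30e-3p, which have a seed of their own, fell by 0.96 and 0.98 on the log2 scale.

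miR-30d-5p, the listed member that was not called, was at 0.320 and 0.281 on NASH arrays, against 0.386 and 0.324 on control arrays (log2 -0.24, adjusted p = 0.268). The calls of miR-30b-5p and miR-30e-5p did not hold without NASH replicate 1 (adjusted p = 0.0562 and 0.0724) or without control replicate 2 (adjusted p = 0.0909 and 0.0657).

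The let-7 family, which holds back growth genes, was divided although its 9 included members have the same seed, GAGGUAG. Of these 1 rose, 3 fell and 5 were not called, over a range of -1.06 to 0.58. These counts are near the shares over the 242, where 11.6% were called higher and 23.1% lower. let-7g-5p was at 3.19 and 4.04 on NASH arrays, against 6.86 and 8.16 on control arrays (log2 -1.06, SE 0.17, adjusted p = 0.00447). let-7i-5p was at 1.58 and 2.01 on NASH arrays, against 1.08 and 1.32 on control arrays (log2 0.58, SE 0.17, adjusted p = 0.0479). let-7b-5p and let-7a-5p, at -0.29 and -0.23, were not called (adjusted p = 0.14 and 0.0656).

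let-7f-5p fell (log2 -0.76, adjusted p = 0.00721), and its difference was 0.00 after quantile normalization. let-7i-5p was no longer called without NASH replicate 2, control replicate 1 or control replicate 2 (adjusted p = 0.195, 0.16 and 0.0611). The members differ by few bases, and how well the probes separate them was not tested.

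The miR-23, miR-27 and miR-24 clusters showed the same kind of division by locus. The copy on chromosome 8 encodes miR-23a, miR-27a and miR-24, and the copy on chromosome 13 encodes miR-23b, miR-27b and miR-24. miR-27a-3p was at 1.67 and 1.98 on NASH arrays, against 0.618 and 0.877 on control arrays, a 2.47-fold rise (log2 1.30, SE 0.22, adjusted p = 0.00528). miR-27b-3p, with 1 base different, was at 0.673 and 0.856 on NASH arrays, against 1.06 and 1.11 on control arrays, and fell (log2 -0.51, SE 0.13, adjusted p = 0.0302).

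miR-23a-3p and miR-24-3p rose by 0.55 and 0.47 on the log2 scale (adjusted p = 0.0379 and 0.0173), while miR-23b-3p fell by 0.54 (adjusted p = 0.00638). miR-24-3p comes from both loci. miR-27b-3p lost its call without NASH replicate 1 or either control array (adjusted p = 0.114, 0.0658 and 0.127), and miR-23a-3p without NASH replicate 2 or either control array (adjusted p = 0.138, 0.0787 and 0.122). miR-24-3p lost it without NASH replicate 1 or 2 (adjusted p = 0.0589 and 0.0634). The opposite signs of miR-27a-3p and miR-27b-3p were kept under the other scalings, but the fall of miR-27b-3p was then as small as -0.04.

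miR-132-3p and miR-212-3p are made from a single transcript on chromosome 11, which is induced by neuronal activity and in inflammation. miR-212-3p was at 0.194 and 0.191 on NASH arrays, against 0.361 and 0.374 on control arrays, and fell to 0.524 of control (log2 -0.93, SE 0.04, adjusted p = 1.11e-05). miR-132-3p was at 0.0454 and 0.0453 on NASH arrays and at the floor on both control arrays, which makes it at least 1.78-fold higher with NASH (adjusted p = 2.42e-04). This direction turned after normexp background correction, where the log2 difference was -0.079.

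miR-193b-3p, the partner of miR-193a-3p by seed, was at 0.0277 and 0.0252 on NASH arrays and at the floor on control arrays, at least 1.04-fold higher (adjusted p = 0.0227). It was not called without NASH replicate 1 or control replicate 2 (adjusted p = 0.0844 and 0.0892), and it turned to -0.18 after normexp. Over all hairpins, both arms were included for 33 and detected on all 4 arrays for 15. Of these 15, 6 had both arms called in the same direction, 1 in opposite directions, 4 had 1 arm called and 4 had neither.

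miR-101, whose targets include the histone methyltransferase Ezh2, fell far but with a wide spread between the NASH arrays. miR-101a-3p was at 0.144 and 0.379 on NASH arrays, against 0.707 and 0.919 on control arrays (log2 -1.79, SE 0.53, adjusted p = 0.0465). miR-101b-3p was at the floor and 0.0507 on NASH arrays, against 0.110 and 0.130 on control arrays (log2 -1.83, SE 0.44, adjusted p = 0.0235). miR-101c, of the same family, was at 0.0852 and 0.270 on NASH arrays, against 0.538 and 0.755 on control arrays, and just missed the call (log2 -2.07, SE 0.63, adjusted p = 0.0511).

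In all 3 the NASH replicate 1 array was the lowest of the 4. Without it miR-101a-3p was at -1.09 (adjusted p = 0.177) and miR-101b-3p at -1.24 (adjusted p = 0.0864). Neither was called without control replicate 1 (adjusted p = 0.106 and 0.0723) or control replicate 2 (adjusted p = 0.184 and 0.107). The same array was lowest for miR-19a-3p of the proliferation-linked miR-17-92 cluster, which was at 0.0468 and 0.260 on NASH arrays, against 0.307 and 0.340 on control arrays, and was not called (log2 -1.55, SE 0.84, adjusted p = 0.253). Of 10 miRNAs of that cluster and its paralogues, 1 rose and 9 were not called, near the share of 11.6% called higher over the 242.

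These miRNAs are poor in G and C, and the difference between arrays moved with base composition. Among 206 miRNAs detected on all 4 arrays with a sequence, the median NASH minus control difference was -0.60 for the 31 with a GC content under 40% and 0.11 for the 54 with over 60%. In the first group 11 were called lower and 20 were not called, and in the second 4 were called higher and 5 lower. The median of NASH replicate 2 minus NASH replicate 1 was 0.59 in the first group and -0.44 in the second, and that of control replicate 2 minus control replicate 1 was 0.17 and -0.35.

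With the GC trend of each array removed, an alternative chosen after seeing the data, 70 of 336 miRNAs tested were called higher and 52 lower. This step also recentred each array. The median difference of miRNAs detected on every liver array was -0.07 there, over those with a sequence, against -0.16 in the main fit. Of 60 named calls that could be tested so, 55 held, 26 of 27 rises and 29 of 33 falls. miR-101a-3p was at -1.37 and miR-192-5p at -1.54 in that fit, both called. let-7f-5p, at -0.32 there, was not (adjusted p = 0.135).

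**Figure D3:**
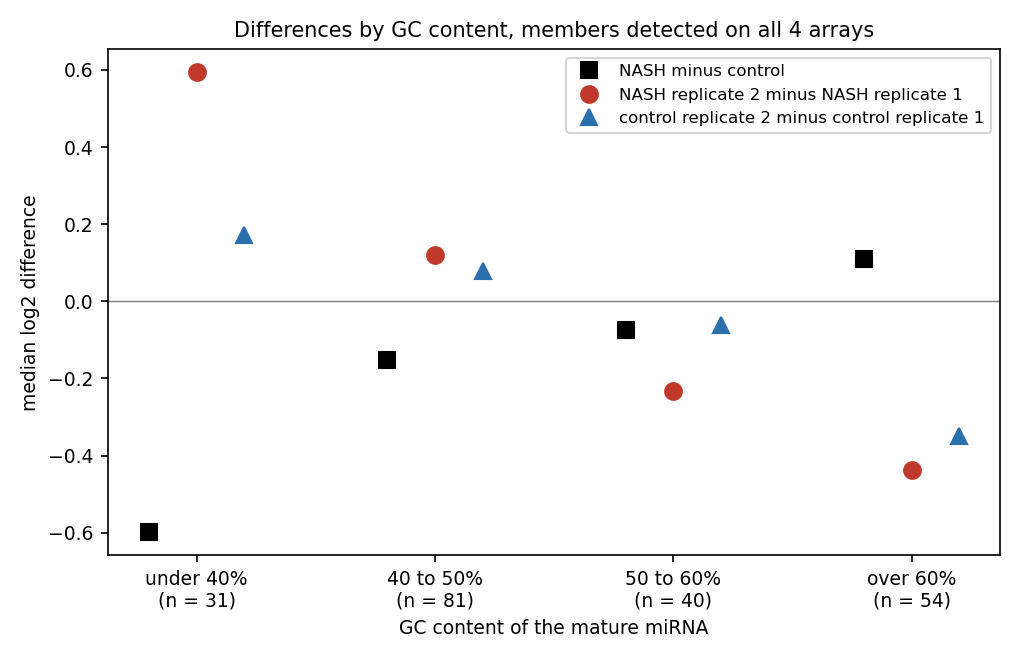
Median log2 difference by GC content of the mature miRNA, over 206 miRNAs detected on all 4 arrays. Black squares show NASH minus control and coloured points the difference between the 2 arrays of a diet, which shifts with GC content as well, by 0.59 to -0.44 between the NASH arrays.

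Other cell types that whole liver contains gave smaller sets. Of 4 red cell miRNAs included, 3 fell and 1 was not called, against 15.5% called lower over the 388. The 3 were miR-451a, miR-486a-5p and miR-144-5p, which is given above. miR-486a-5p was at -0.46 (adjusted p = 0.0435) and lost its call whichever week 6 array was left out (log2 -0.48 to -0.44). miR-451a, the main miRNA of erythrocytes, was at 1.13 and 2.06 on NASH arrays, against 3.70 and 5.68 on control arrays (log2 -1.59, SE 0.46, adjusted p = 0.0432). It lost its call without NASH replicate 1 or either control array (adjusted p = 0.189, 0.0668 and 0.19). The summed signal of the red cell list was 1.19 and 2.15 on NASH arrays, against 3.86 and 5.95 on control arrays, and how much blood each liver held was not tested.

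miR-126a-3p, the endothelial miRNA of the Egfl7 gene, was at 2.98 and 4.26 on NASH arrays, against 5.81 and 6.59 on control arrays (log2 -0.80, SE 0.22, adjusted p = 0.0379). It too depended on single arrays, with adjusted p of 0.155, 0.0833 and 0.159 without NASH replicate 1, control replicate 1 and control replicate 2. miR-203-3p, best known from skin keratinocytes, was at 0.0742 and 0.110 on NASH arrays, against 0.260 and 0.274 on control arrays, and fell to 0.337 of control (log2 -1.57, SE 0.23, adjusted p = 0.00272).

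The miR-200 family, which marks bile duct epithelium in liver, had 5 included members, which all missed the call. Their median was 0.59, and the summed signal was 0.383 and 0.591 on NASH arrays, against 0.300 and 0.307 on control arrays. miR-200b-3p was at 0.201 and 0.288 on NASH arrays, against 0.145 and 0.125 on control arrays (log2 0.84, SE 0.42, adjusted p = 0.213). At this number of arrays a difference of that size with that spread was not detectable.

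miR-7a-5p, abundant in neurons and endocrine cells, fell (log2 -1.48, SE 0.43, adjusted p = 0.046) but was not called without NASH replicate 1, control replicate 1 or control replicate 2 (adjusted p = 0.128, 0.104 and 0.184). 3 miRNAs with bright probes and no role stated here, miR-6366, miR-3963 and miR-5100, fell by 0.88, 0.88 and 1.08 on the log2 scale (adjusted p = 0.0186, 0.00108 and 1.02e-04). The first was at 0.00 and the second at 0.10 after quantile normalization, and miR-6366 was not called without NASH replicate 2 or control replicate 1 (adjusted p = 0.0815 and 0.119).

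The week 6 differences were set against those of weeks 1 and 2, which use other arrays. Of the 84 called miRNAs detected on all 4 week 6 arrays, 81 had the same sign at week 1 and 83 at week 2, and 80 at both. The share over all tested miRNAs was not counted. In those weeks too NASH arrays lay in the slide column after that of control, which cannot be told apart from diet. NASH arrays again detected more miRNAs, 373 and 337 against 269 and 307 at week 1, and 337 and 359 against 292 and 306 at week 2. At week 1, where 12.9% of the 388 were called (6.96% higher, 5.93% lower), 32 of the 84 were called in the same direction. At week 2, where 29.9% were called (17.5% higher, 12.4% lower), 62 were. The difference was largest at week 6 for 62 of the 84, but these had been chosen for their week 6 difference.

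miR-34a-5p differed by 1.98, 3.02 and 3.58 at weeks 1, 2 and 6, and miR-122-5p by -0.66, -1.02 and -1.24. miR-223-3p was already at 1.69 at week 1, with 1.75 and 1.78 at weeks 2 and 6. miR-214-3p differed by 0.74, 1.97 and 2.00. miR-7118-5p did not follow this order, with 1.05, 3.76 and 2.14.

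A contrast of the week 6 difference against the mean of the earlier 2, which tests such a change directly, called 5 of 388 miRNAs (1.29%), 3 higher (0.773%) and 2 lower (0.515%). The count was 0 with no scaling, with normexp and with miRNAs detected on every liver array alone, where limma gave 23, 16 and 19 at an unadjusted p below 0.05. With the replicate number within each week as a block the count was 1. It was 21 without NASH replicate 1, 19 without NASH replicate 2 and 3 without control replicate 1 or control replicate 2.

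The difference of miR-193a-3p lay further below 0 than in the earlier weeks (contrast -0.57, SE 0.08, adjusted p = 0.0259). Its relative signal at weeks 1, 2 and 6 was 1.34 and 1.47, 1.02 and 0.984, and 0.788 and 0.735 on NASH arrays. On control arrays it was 1.81 and 1.91, 1.80 and 1.94, and 1.80 and 1.75 at the same weeks. The control level thus stayed within 1.75 to 1.94 while the NASH values of the 3 weeks did not overlap.

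miR-212-3p showed the same order with a smaller step (-0.31, SE 0.04, adjusted p = 0.03). miR-299b-5p, miR-342-5p and miR-434-3p, the last a Dlk1-Dio3 member, were at the floor on all control arrays and had contrasts of 1.55, 0.50 and 1.07 (adjusted p = 0.0374, 8.30e-05 and 0.02). A floor shared by control arrays removes their spread, so these SE and p-values may be too small. After normexp the week 6 difference turned to -0.10 for miR-342-5p and -0.053 for miR-434-3p.

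**Figure D4:**
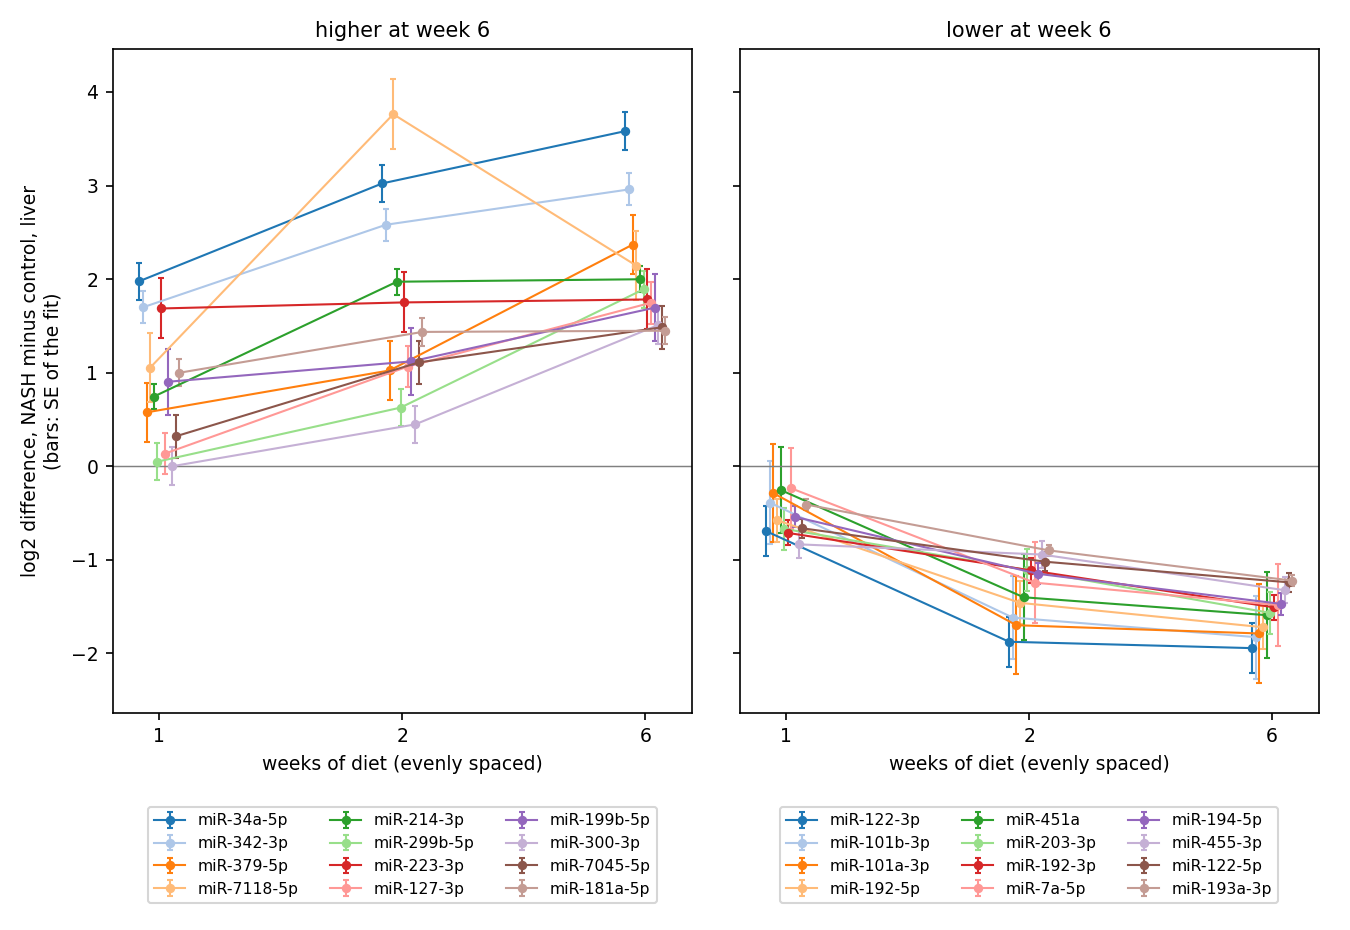
Log2 difference (NASH minus control, liver, with the SE of the fit) at weeks 1, 2 and 6 of the 12 miRNAs with the largest rise and the 12 with the largest fall at week 6, which were chosen for their week 6 value. miR-34a-5p has 1.98, 3.02 and 3.58, miR-223-3p stays between 1.69 and 1.78, and miR-7118-5p is highest at week 2.

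Serum of week 6 was measured on separate arrays, where 5.4% of 426 miRNAs were called higher and 6.57% lower. Of the 56 miRNAs called lower in liver and detected on all 4 liver arrays, 48 were tested in serum, where 5 were called higher and 7 lower. Of the 28 called higher in liver, 25 were tested in serum, where 3 were called higher and 3 lower. The serum difference minus the liver difference was called for 67 of 293 miRNAs tested in both (22.9%), 21 higher (7.17%) and 46 lower (15.7%). Levels were scaled separately in the tissues, so differences are compared and levels are not.

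Of the 10 hepatocyte miRNAs that fell in liver, 4 were called higher in serum and 6 were not called there. miR-122-5p was at 18.2 and 25.7 on NASH serum arrays, against 1.74 and 1.46 on control serum arrays. The serum difference was 3.76 (SE 0.99, adjusted p = 0.0579) and stood 5.00 above that in liver (SE 0.99, adjusted p = 0.00231). miR-192-5p was at 2.94 and 3.56 on NASH serum arrays, against 0.540 and 0.468 on control serum arrays, a difference of 2.69 (adjusted p = 0.014), and the gap to liver was 4.41 (adjusted p = 8.26e-06). miR-148a-3p and miR-122-3p, the second at the floor on both control serum arrays, had gaps of 3.04 each (adjusted p = 9.34e-05 and 4.36e-05). miR-194-5p, made with miR-192, was at -0.40 in serum and not called (adjusted p = 0.632), and its gap to liver was not called either (1.07, adjusted p = 0.0914).

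miR-214-3p and miR-199b-5p, both higher in liver, were called lower in serum. miR-214-3p was at 0.108 and 0.0485 on NASH serum arrays, against 0.291 and 0.403 on control serum arrays. Its serum difference was -2.24 (adjusted p = 0.0159), and the gap to liver was -4.24 (SE 0.40, adjusted p = 8.26e-06). miR-199b-5p was at the serum floor of 0.0381 on both NASH serum arrays, against 0.165 and 0.104 on control serum arrays, with a gap of -3.47 (adjusted p = 3.47e-04). miR-497a-5p and miR-200b-3p had gaps of -3.20 and -2.87 (adjusted p = 5.09e-05 and 0.00812).

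miR-34a-5p and miR-342-3p were higher in both tissues. miR-34a-5p in serum was at 1.63 and 1.74 on NASH arrays, against 0.286 and 0.202 on control arrays (2.81, adjusted p = 0.00282), and its gap to liver was not called (-0.77, SE 0.32, adjusted p = 0.101). For miR-342-3p the serum difference was 2.80 (adjusted p = 0.0159) and the gap -0.16 (SE 0.48, adjusted p = 0.875). miR-223-3p, higher in liver, was at 6.60 and 4.93 on NASH serum arrays, against 7.99 and 6.05 on control serum arrays, with overlapping groups.

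**Figure D5:**
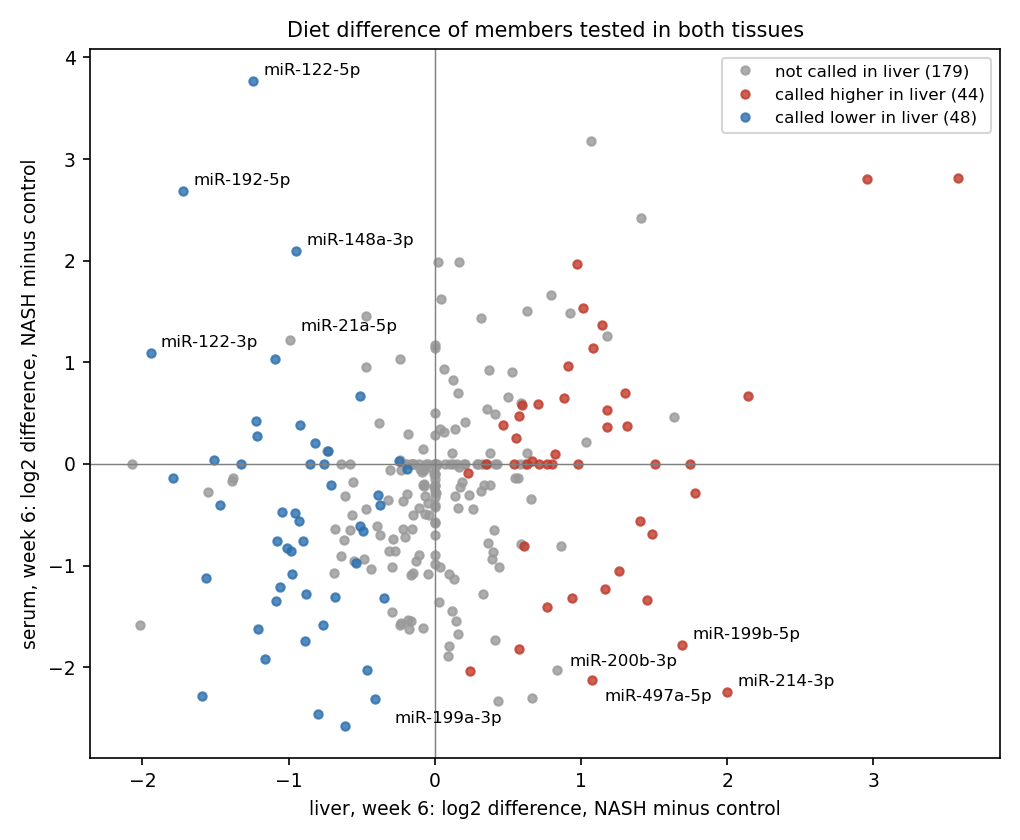
Log2 difference (NASH minus control, week 6) in liver (x axis) and serum (y axis) of the miRNAs tested in both tissues, coloured by the liver call. miR-122-5p, miR-192-5p, miR-148a-3p and miR-122-3p lie at the upper left, miR-214-3p, miR-199b-5p and miR-497a-5p at the lower right, and points on the horizontal line are at the serum floor in both groups.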

How the data were processed

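The deposited files give a 1-colour intensity for each spot, read with Agilent Feature Extraction (version 11.5 in the submitters' processing notes). Its processed signal is background-subtracted, per the file headers, and was used with no earlier normalization between arrays. Control and outlier spots were dropped and spots of a probe averaged. Each liver array was divided by the 75th percentile over 298 probes well above background on all 12 liver arrays, floored at 0.0224 (from the 5th percentile of signals well above background, its median over arrays, with 35.7% of values at the floor), and log2 was taken. The brightest probe stood for a miRNA. limma 3.58.1 (R 4.3.3) was fitted to 6 diet-by-week groups with eBayes (6 residual and 0.492 prior degrees of freedom), with Benjamini-Hochberg adjustment over 388 miRNAs detected on at least 2 liver arrays. Serum was processed alike and joined in a fit over all 24 arrays. Where a miRNA was well above background on neither array of a diet, "at least" folds set the brighter mean against the higher of its own signal and the lowest signal well above background. The adjusted p beside such a fold tests the difference between floored values. It may be too small where arrays at the floor have no spread. The number of arrays limits the precision.

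Members and lists were chosen with earlier results of these data known. Named were up to 12 miRNAs per direction with the largest called change, up to 4 called and 2 uncalled per list, 14 fixed ones, the 6 brightest, up to 5 per direction in the week and tissue contrasts, up to 8 per direction by bound, and those that share a seed or hairpin with these. The lists covered immune cells, hepatocytes, stellate cells with fibrosis, miR-34, miR-29, miR-17-92 and paralogues, lipid metabolism, let-7, miR-101, miR-30, miR-23/27/24, miR-200, Dlk1-Dio3, endothelium, red cells, muscle, pancreas, skin and brain (1 member, miR-128-3p, log2 0.15, not called). The steps were tested on simulated data. Other scalings, background correction, probe summaries, floors, filters, variance models, blocks and left-out arrays were tried.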

Additional observations from a re-analysis of the deposited data

Results flagged for a closer look

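In a direct test, the week 6 diet difference in serum differed from that in liver for 67 of 293 miRNAs (22.9%). It was higher in serum for 21 and lower for 46. The 10 given here are the 5 largest in each direction among the included miRNAs. The serum difference minus the liver difference was 5.00 for miR-122-5p, 4.41 for miR-192-5p, 3.04 for miR-148a-3p, 3.04 for miR-122-3p and 2.21 for miR-21a-5p (adjusted p = 0.0298 for the last). It was -4.24 for miR-214-3p, -3.47 for miR-199b-5p, -3.20 for miR-497a-5p, -2.96 for miR-199a-3p (adjusted p = 0.022) and -2.87 for miR-200b-3p. miR-21a-5p, miR-199a-3p and miR-200b-3p were called in neither tissue alone.

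For 5 miRNAs the week 6 difference in liver differed from the mean of weeks 1 and 2, by 1.55 for miR-299b-5p, 1.07 for miR-434-3p and 0.50 for miR-342-5p, and by -0.57 for miR-193a-3p and -0.31 for miR-212-3p. With the replicate number within each week as a block 1 miRNA was called.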

How the results depend on the processing

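Depth is set by 2 arrays a group and by the floor. Against 109 of 388 called (49 higher, 60 lower), no scaling gave 41 (0 lower), scaling over all probes 32 (28 higher, 4 lower) and normexp 71 (16 higher). The 4 arrays alone gave 19 (9 higher, 10 lower). With no detection filter 60 of 1881 tested were called (32 higher, 28 lower). Of the 218 miRNAs detected on all liver arrays, 88 were called (31 higher, 57 lower). Leaving out 1 array gave 76 to 112, with 38 to 54 higher and 38 (without control replicate 2) to 59 lower. Against 5 called for week 6 minus the earlier weeks, the count was 0 with no scaling, with normexp and for miRNAs detected on all liver arrays, 9 with median centring, 3 with all-probe scaling, 11 with quantile normalization, 22 with total gene signal, 1 with no filter, 12 with the GC trend removed and 3 to 21 with 1 array left out. Against 67 for serum minus liver it was 27 with no scaling and 32 with all-probe scaling.

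Replicate numbers were not treated as pairs, since deviations of same-numbered arrays correlated at -0.60, 0.42 and 0.49 in weeks 1, 2 and 6. The replicate number was also the row on the slide for every array, and what same-numbered arrays of week 6 share was not tested. With the slide row as a block common to all weeks 111 were called at week 6, 6 for week 6 minus the earlier weeks and 75 for serum minus liver. With the replicate number within each week as a block 87 were called at week 6, 1 for week 6 minus the earlier weeks and 75 for serum minus liver.

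Directions turned under normexp for miR-132-3p (-0.079), miR-146b-5p (-0.11), miR-17-3p (-0.15), miR-193b-3p (-0.18), miR-222-3p (-0.13), miR-342-5p (-0.10) and miR-434-3p (-0.053), with no scaling for miR-29c-5p (0.092) and after quantile normalization for miR-3963 (0.10); the causes were not tested. Of 66 named calls 45 held with each array left out, and 16 of 28 rises and 0 of 38 falls held with no scaling.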

Other observations

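The miRNAs described here were picked after their values were seen. A cluster on the X chromosome (chrX:7237683-7248497, minus strand) holds miR-500, miR-362, miR-188 and miR-532. Of its 5 included miRNAs with a sequence 3 rose, against 12.6% called higher over the 388. miR-532-5p had no sequence and is outside this count, although it was called. miR-500-3p was at 0.168 and 0.134 on NASH arrays, against 0.0815 and 0.0813 on control arrays (log2 0.88, SE 0.10, adjusted p = 0.00116). miR-188-5p was at least 1.85-fold and miR-532-3p at least 1.28-fold higher with NASH (adjusted p = 2.71e-04 and 0.00719). Both were well above background on neither control array, so the count of 3 is a description. miR-362-3p was at 0.0644 and 0.0893 on NASH arrays, against 0.0666 and 0.0923 on control arrays, and was not called.

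Both arms of miR-22, a miRNA of striated muscle and liver, fell. miR-22-3p was at 7.01 and 7.91 on NASH arrays, against 18.3 and 13.8 on control arrays (log2 -1.09, SE 0.16, adjusted p = 0.00272), and miR-22-5p fell by 1.21 (adjusted p = 0.0132). miR-26a-5p and miR-26b-5p, which have the same seed, fell by 0.61 and 1.21 on the log2 scale (adjusted p = 0.0012 and 0.0125). miR-15b-5p, of the cell-cycle-linked miR-15 family, was at 3.20 and 2.66 on NASH arrays, against 1.21 and 1.23 on control arrays, and rose 2.39-fold (log2 1.26, SE 0.12, adjusted p = 6.36e-04).

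The arms of miR-652, from a hairpin within the span of Tmem164, were the pair called in opposite directions. miR-652-3p was at 0.527 and 0.416 on NASH arrays, against 0.258 and 0.231 on control arrays (log2 0.94, SE 0.13, adjusted p = 0.00268). miR-652-5p was at 0.137 and 0.113 on NASH arrays, against 0.258 and 0.20 on control arrays (log2 -0.87, SE 0.18, adjusted p = 0.0138).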
